A study of Mus musculus with 96 samples.

Results

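The transcripts of 9 lysosomal genes were followed across single leukemic spleen cells of the mouse: the lipid-pathway genes Naaa, Plbd1, Psap and Gm2a, and the protease genes Lgmn, Ctsb, Ctsd, Ctsl and Ctsz. All 9 of 9 were found among the 23955 gene symbols of the expression table. The set was selected on the measured values of these same cells, so its levels by cell state are given as a description and no test was made. Cells were divided by rule on 3 marker transcripts: a cell with H2-Aa, a chain of MHC class II, at 1000 TPM or more was called H2-Aa-high. Of the remaining cells, those with S100a8, a neutrophil and monocyte calcium-binding protein, at 1000 TPM or more were called S100a8-high, then those with Mpo, the myeloperoxidase of granulocyte precursors, at 1000 TPM or more were called Mpo-high, and all others were called rest. TPM, an abundance scaled to a fixed total in each cell, takes transcript length into account, so levels can be compared between genes.

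Acute myeloid leukemia had made both of the 2 donor mice moribund, and 48 of the 96 cells were from each animal; both were Flt3ITD/ITD;Dnmt3afl/- with MxCre. Both therefore carried the internal tandem duplication in both copies of the receptor tyrosine kinase gene Flt3, 1 floxed and 1 null copy of the DNA methyltransferase gene Dnmt3a, and a Cre recombinase driven by the interferon-inducible Mx1 promoter. Splenocytes had been enriched for c-Kit (CD117) with beads, and cells were captured on a microfluidic chip and read individually. The series asks how loss of Dnmt3a function alters expression in Flt3-ITD leukemia, but the genotype was shared by both mice and the control genotype was not analysed here, so no difference below is an effect of either gene. There was 1 animal on each side, and mouse was the same division as capture round and as sex, read here from transcripts. Mouse, capture round and sex therefore cannot be told apart, and the spread between cells is not a replicate error.

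A lysosome is an acidic compartment in which hydrolases take apart lipids, proteins and sugars brought in by endocytosis, phagocytosis or autophagy. In dendritic cells and macrophages its proteases also trim antigens and the invariant chain for presentation on MHC class II. Naaa encodes N-acylethanolamine acid amidase, which splits fatty-acid ethanolamides. Plbd1 encodes a phospholipase B-like protein. Psap encodes prosaposin, the precursor of the saposins that present sphingolipids to their hydrolases, and Gm2a the activator protein that lifts GM2 ganglioside for beta-hexosaminidase. Lgmn encodes legumain, an asparaginyl endopeptidase, Ctsb, Ctsl and Ctsz are cysteine cathepsins, and Ctsd is the main aspartic protease of the lysosome.

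Mouse 1 held 14 H2-Aa-high cells, 13 Mpo-high cells, 1 S100a8-high cell and 20 rest cells. Mouse 2 held 20 H2-Aa-high, 12 Mpo-high, 10 S100a8-high and 6 rest cells. The H2-Aa and S100a8 thresholds fell in wide gaps: H2-Aa was 114.54 TPM in the highest cell below the line and 6732.43 TPM in the lowest above it, and S100a8 was 133.14 and 1251.07 TPM. Mpo was continuous there, with 998.87 TPM just below and 1032.55 TPM just above. A total of 4 cells passed more than 1 threshold, among them 1 H2-Aa-high cell of mouse 2 and the only S100a8-high cell of mouse 1. Against markers of other cell types, all 10 of 10 type 1 conventional dendritic cell (cDC1) markers stood at 10 TPM or more in 50% or more of the H2-Aa-high cells of each mouse, with summed levels of 3383 to 11011 TPM in mouse 1 and 3330 to 9950 TPM in mouse 2. Of 11 macrophage markers, 10 were at 0 in every H2-Aa-high cell of mouse 1 and 8 in mouse 2, and C1qa, C1qb, C1qc, Mertk, Marco and Cd5l were at 0 in all 4 states of both mice. Monocyte markers were not absent from H2-Aa-high cells: 3 of 8 in mouse 1 and 2 of 8 in mouse 2 reached 10 TPM in 50% or more of them, with median sums of 1117 and 597 TPM against 131 and 25.1 TPM in rest cells, and Ccr2 had means of 653 and 260 TPM. Erythroid markers moved with the rest cells, where their median sums were 708 and 197 TPM, led by the globin gene Hbb-bt at means of 1493 and 347 TPM, against medians of 1.015 and 0.21 TPM in H2-Aa-high cells. The part of either list in the differences below was not tested. Of 7 type 2 conventional dendritic cell (cDC2) markers, 0 reached 10 TPM in 50% or more of the H2-Aa-high cells of either mouse. Their median sums there were 0.15 and 0 TPM, but the highest cell sums were 4998 and 155 TPM. Cd209a led, with means of 483 and 7.77 TPM. In rest cells the highest cDC2 sums were 3.7 and 1.45 TPM. The part of this list was not tested either. Of 7 plasmacytoid dendritic cell markers, 0 reached 10 TPM in 50% or more of the H2-Aa-high cells of either mouse. Their median sums there were 1.275 and 0.46 TPM, and the highest cell sums 73.6 and 150 TPM. Tcf4 led in mouse 1 with a mean of 8.34 TPM and Bst2 in mouse 2 with 9.38 TPM, and Siglech had means of 0.095 and 0.18 TPM. In rest cells the median sums were 26.9 and 66.1 TPM. Granulocyte-monocyte progenitor markers reached 10 TPM in 50% or more of Mpo-high cells for 6 of 8 genes in mouse 1 and 7 of 8 in mouse 2, neutrophil markers for 7 of 9 in the S100a8-high cells of mouse 2, and stem and early progenitor markers for 5 of 8 in the rest cells of both mice. H2-Aa-high cells had the fewest detected genes (1 TPM or more), with medians of 2921.5 and 2581 in mouse 1 and mouse 2, against 4463 and 4041 in Mpo-high and 3587.5 and 4251.5 in rest cells. The part of detected-gene number in the differences below was not tested beyond a linear removal, whose values are given beside each comparison. That removal was fitted for each gene over all cells of a mouse, so it also takes up differences between the states.

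The lipid-pathway genes set the H2-Aa-high cells apart from the other cells in both mice. Naaa, Plbd1, Psap and Gm2a were at 10 TPM or more in 34 of 34 H2-Aa-high cells (95% exact Clopper-Pearson interval 89.7 to 100%, for the counting of cells only). Among the 62 other cells, Naaa and Plbd1 each reached that level in 6, Psap in 22 and Gm2a in 51. Naaa and Plbd1 were thus each close to on or off between this state and the others, whereas Gm2a was read in most cells and was higher in this state. Outside the state Naaa and Plbd1 did not run as a pair. Their Spearman correlation over the other cells was 0.208 in mouse 1 and 0.190 in mouse 2. The S100a8-high cell of mouse 2 with Plbd1 at 2214 TPM had Naaa at 1.07 TPM.

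**Figure D1:**
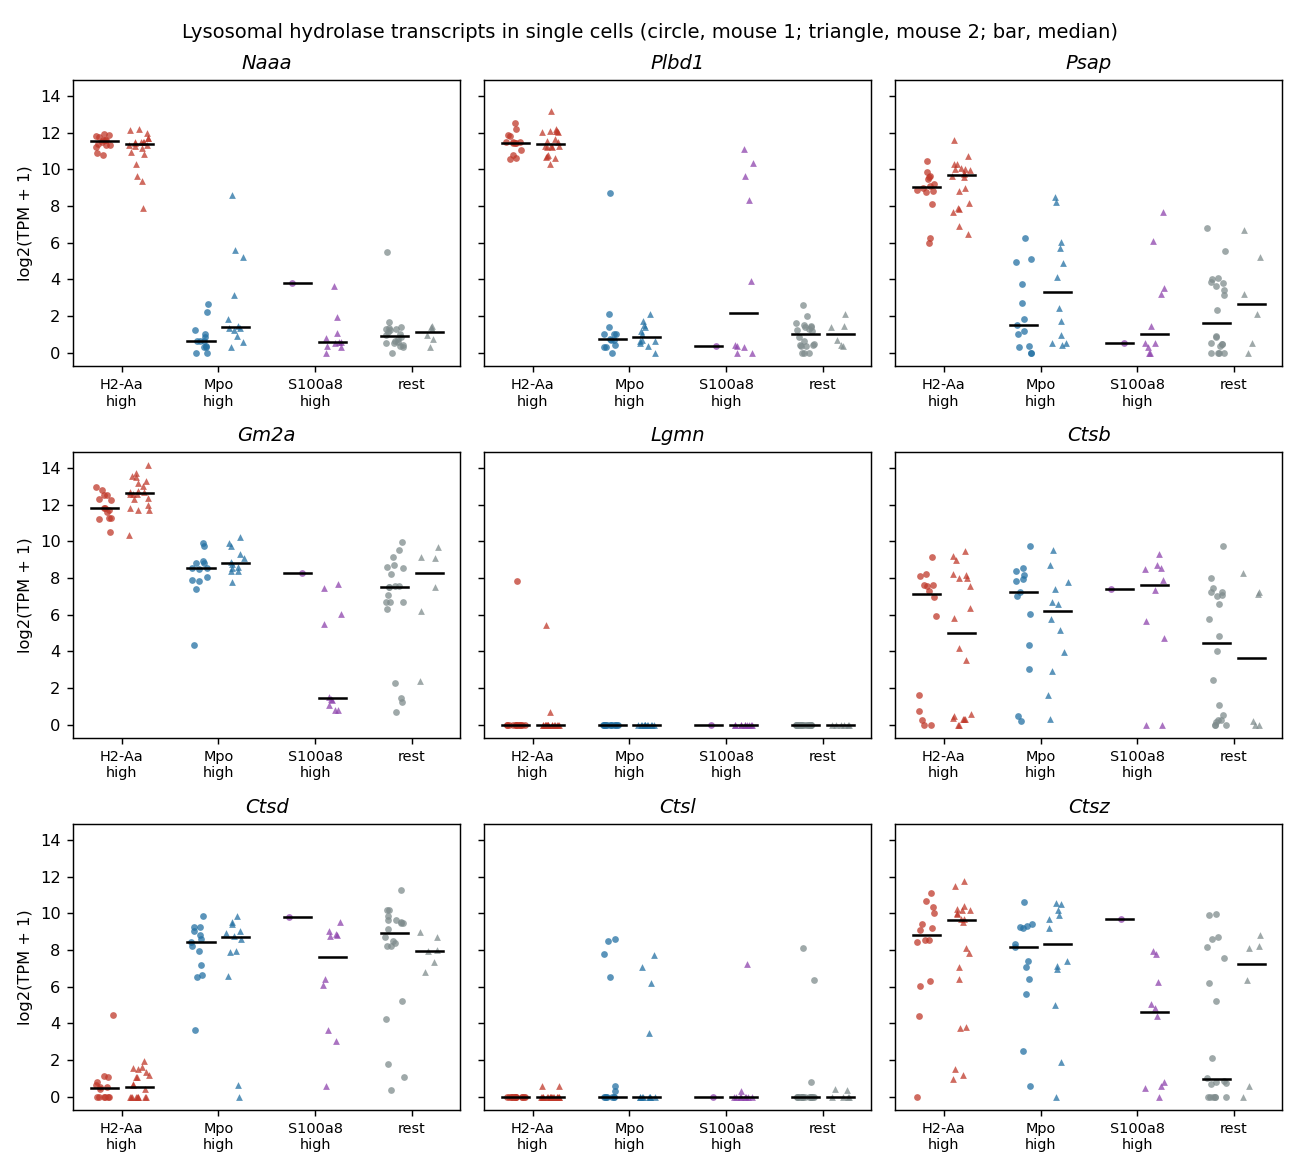
Each panel plots 1 gene, with log2(TPM + 1) on the vertical axis and cell state on the horizontal axis; each point is 1 cell (circles mouse 1, triangles mouse 2) and bars are medians. Naaa, Plbd1, Psap and Gm2a lie highest in H2-Aa-high cells of both mice, Ctsd lies near 0 in the same cells, and Lgmn and Ctsl are at or near 0 in most cells of every state.

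Naaa (chromosome 5, 92257659 to 92278170, minus strand, GRCm38) was at 1765 TPM in the lowest, 2952 in the median and 3973 in the highest of the 14 H2-Aa-high cells of mouse 1. In the 20 H2-Aa-high cells of mouse 2 it was 236, 2650 and 4719 TPM. Outside this state the median was 0.73 TPM in mouse 1 and 1.22 TPM in mouse 2. The groups did not overlap in mouse 1, where the highest other cell stood at 44.3 TPM. In mouse 2, 1 Mpo-high cell at 390 TPM lay above the lowest H2-Aa-high cell, and the next other cell was at 47.8 TPM. The mean of log2(TPM + 1) was higher in H2-Aa-high than in rest cells by 10.38 in mouse 1 and 10.03 in mouse 2.

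Plbd1 (chromosome 6, 136612070 to 136661928, minus strand) was as high as Naaa in the same cells. Its lowest, median and highest H2-Aa-high levels were 1508, 2827 and 6019 TPM in mouse 1 and 1262, 2722 and 9137 TPM in mouse 2. Rest cells had medians of 1.07 and 1.10 TPM and none reached 10 TPM, which over 26 cells allows a share of up to 11.5%. The difference from rest was 10.48 in mouse 1 and 10.41 in mouse 2 on the log2(TPM + 1) scale. No other cell of mouse 1 reached the H2-Aa-high range, the highest being an Mpo-high cell at 426 TPM, but in mouse 2 S100a8-high cells at 2214 and 1310 TPM did. Between Naaa and Plbd1, the mean levels of 2917 ± 664 and 2995 ± 1227 TPM (SD over 14 cells) in mouse 1 and 2535 ± 1190 and 3225 ± 1766 TPM (SD over 20 cells) in mouse 2 differed by less than the spread between cells.

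The low readings of both genes outside the state were a small trace. The median level in other cells was 0.025% of the H2-Aa-high mean for Naaa in mouse 1 and 0.048% in mouse 2, and for Plbd1 0.025% and 0.026%. For scale, Xist, the transcript of X-chromosome inactivation, stood in mouse 2, where Y-linked RNA was read, at a median that was 0.055% of the mouse 1 mean. Where these traces came from was not tested, and values under 10 TPM were not read as expression.

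Because Naaa and Plbd1 had the largest differences of the set, the bases upstream of their start sites are given here from the RefSeq promoter table (GRCm38.p6, both on the minus strand, 5′ to 3′, all in lower case because neither of the motifs searched lies in them). The Naaa stretch is chr5:92278182-92278431 and covers bases -250 to -1 from the start. The Plbd1 stretch is chr6:136661929-136662143 and covers bases -250 to -36.
Naaa: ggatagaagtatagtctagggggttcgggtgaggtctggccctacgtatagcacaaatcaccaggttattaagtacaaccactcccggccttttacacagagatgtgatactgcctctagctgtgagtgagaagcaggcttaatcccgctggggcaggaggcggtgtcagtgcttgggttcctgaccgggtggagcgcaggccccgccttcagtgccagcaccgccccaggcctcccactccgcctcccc
Plbd1: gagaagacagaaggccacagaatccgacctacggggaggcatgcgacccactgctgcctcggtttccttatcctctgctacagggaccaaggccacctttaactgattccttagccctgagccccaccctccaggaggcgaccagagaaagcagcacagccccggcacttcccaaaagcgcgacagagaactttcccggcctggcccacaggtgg
The stretches had G+C contents of 59.2% and 60.5%. The motifs searched on both strands were CACGTG, the core of the sites bound by the lysosomal gene regulator TFEB and many other helix-loop-helix factors, and the ETS-IRF composite element, a joint site of PU.1 with IRF factors such as IRF8. The composite element was in 0 of the 10 promoters of the 8 members present in the promoter table, against 2.72% of all 32851 promoters of the same length. CACGTG was in promoters of 4 of the 8 members, Ctsd, Ctsl, Lgmn and Plbd1, against 8.09% of 27025 genes. In Plbd1 it began at base 44 after the start, outside the stretch shown, and in Lgmn at base -49 in 1 of its promoters.

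Psap (chromosome 10, 60277627 to 60302597, plus strand) was lower than Naaa and Plbd1 but marked the same cells. Its lowest, median and highest levels in H2-Aa-high cells were 62.02, 530 and 1418 TPM in mouse 1 and 87.5, 827 and 3153 TPM in mouse 2. Rest cells had medians of 2.47 and 5.66 TPM, and Mpo-high cells of 1.81 and 10.4 TPM. The states overlapped at the edge: 2 other cells of mouse 1 and 4 of mouse 2 lay at or above the lowest H2-Aa-high cell. The difference from rest was 6.59 in mouse 1 and 6.27 in mouse 2 on the log2(TPM + 1) scale.

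Gm2a (chromosome 11, 55098115 to 55113029, plus strand) was the most abundant of the 9 transcripts in H2-Aa-high cells. The lowest, median and highest of these cells had 1458, 3576 and 8140 TPM in mouse 1 and 1323, 6435 and 18442 TPM in mouse 2. Its level did not overlap between H2-Aa-high and other cells in either mouse, since the highest other cells stood at 989 and 1184 TPM. Unlike Naaa and Plbd1 it was plainly read elsewhere, with medians of 367 and 455 TPM in Mpo-high cells and 184 and 361 TPM in rest cells. H2-Aa-high cells exceeded rest by 5.30 in each mouse on the log2(TPM + 1) scale. In 6 of the 10 S100a8-high cells of mouse 2 Gm2a was under 2 TPM.

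Ctsd ran the other way. This gene (chromosome 7, 142375911 to 142388038, minus strand) reached 10 TPM in 1 of 34 H2-Aa-high cells, at 21.3 TPM, and in 55 of the 62 other cells. Its lowest, median and highest levels in rest cells were 0.28, 482 and 2434 TPM in mouse 1 and 110, 246 and 503 TPM in mouse 2. Mpo-high medians were 351 and 411 TPM and the S100a8-high median of mouse 2 was 261 TPM, against 0.375 and 0.46 TPM in H2-Aa-high cells. H2-Aa-high cells lay below rest by a difference of -6.96 in mouse 1 and -7.30 in mouse 2 on the log2(TPM + 1) scale. Only 5 of 34 other cells in mouse 1 and 3 of 28 in mouse 2 fell into the H2-Aa-high range. In the deposited RPKM table, made separately from the same cells, Ctsd was above its floor in 0 H2-Aa-high, 2 S100a8-high, 9 Mpo-high and 12 rest cells, whereas Naaa was above its own in 32, 2, 1 and 0. In the same order of states, Plbd1 was above its floor in 28, 3, 1 and 0 cells, Psap in 15, 0, 1 and 1, and Gm2a in 16, 0, 3 and 3. Psap and Gm2a were thus at the floor there in most of the 34 H2-Aa-high cells.

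The promoter of Ctsd held CACGTG at 2 places, as 0.594% of all promoters did, and that of Ctsl held it once. The 30 bases around each are shown from the same table, with the motif in capitals, 5′ to 3′ on the minus strand. The Ctsd sites are chr7:142388048-142388077 and chr7:142387908-142387937, where the motif begins at bases -245 and -98 from the start, and the Ctsl site is chr13:64370739-64370768, where it begins at -236. These distances are from the RefSeq starts; by the GENCODE spans printed for the genes, the near Ctsd site and the Ctsl site lie inside the gene.
Ctsd far: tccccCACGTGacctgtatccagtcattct
Ctsd near: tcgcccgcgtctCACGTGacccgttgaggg
Ctsl: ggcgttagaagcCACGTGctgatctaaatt
A match describes the letters only, and no binding was measured. Plbd1 and Lgmn held the motif too, as given above, and no link of the motif to level was tested.

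Ctsl and Lgmn were rare transcripts. Ctsl (chromosome 13, 64359337 to 64370890, minus strand) reached 10 TPM in 0 of 34 H2-Aa-high cells, which allows a share of up to 8.82%, and in 11 of 62 others, 8 of them Mpo-high. The highest Ctsl level was 391 TPM, in an Mpo-high cell of mouse 1. Lgmn (chromosome 12, 102394084 to 102439813, minus strand) was at 0 in all 62 other cells, which allows a share at 10 TPM or more of up to 4.84%. It stood at 229.5 TPM in 1 H2-Aa-high cell of mouse 1 and 42.2 TPM in 1 of mouse 2. In Mpo-high cells, which held most of the Ctsl readings, macrophage marker sums reached 663 TPM in mouse 1 and 111 TPM in mouse 2, led by Csf1r, the receptor of a macrophage growth factor, at means of 99.8 and 25.5 TPM; their part in the Ctsl readings was not tested.

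Ctsz and Ctsb were shared among the states. Ctsz (chromosome 2, 174427493 to 174439039, minus strand) reached 10 TPM in 30 of 34 H2-Aa-high, 21 of 25 Mpo-high, 7 of 11 S100a8-high and 12 of 26 rest cells. Median levels in H2-Aa-high, Mpo-high and rest cells were 458, 290 and 0.925 TPM in mouse 1 and 782, 383 and 176 TPM in mouse 2. H2-Aa-high cells exceeded rest by 4.47 and 2.34 on the log2(TPM + 1) scale, with SDs over cells between 2.98 and 4.0, and the ranges overlapped throughout. Ctsb (chromosome 14, 63122462 to 63145923, plus strand) reached 10 TPM in 21 of 34, 19 of 25, 9 of 11 and 14 of 26 cells of the states in the same order. Its difference from rest was 1.09 in mouse 1 and 0.68 in mouse 2, smaller than the SDs over cells of 3.44 to 4.12. For Ctsb and Ctsz the cells of 1 state thus ranged from 0 or near 0 to far higher levels.

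Put side by side, 6 of the 9 genes in mouse 1 and 5 in mouse 2 were higher in H2-Aa-high than in rest cells by 1 or more on the log2(TPM + 1) scale, and 1 (Ctsd) was lower in each. Over the background of 11015 genes (mean over all cells of at least 1 TPM), 8.52% were higher and 30.2% lower in mouse 1, and 7.82% were higher and 38% lower in mouse 2. The members were chosen on this contrast, so nothing is read from their counts against these shares. The median difference of the 9 was 4.47 and 2.34, beside -0.43 and -0.53 over all genes. Relative to those shifts the split of all genes became 14% higher and 20.1% lower in mouse 1 and 15.6% and 25.8% in mouse 2, and 6 members were higher and 1 lower in each mouse. After a linear removal of the number of detected genes, the differences from rest were 7.30 and 6.77 for Naaa, 7.32 and 5.44 for Plbd1, 4.32 and 4.24 for Gm2a, and -4.85 and -4.39 for Ctsd. The same removal gave 4.90 and 3.88 for Psap, 5.37 and 3.19 for Ctsz and 1.80 and 2.46 for Ctsb, and turned Ctsl to 0.046 and 1.45. In the RPKM table, where most values lay at a floor, Naaa and Plbd1 remained past the threshold in both mice, whereas Psap and Gm2a stayed higher and Ctsd lower (-0.27 and -0.24) without reaching it.

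In every H2-Aa-high cell the lipid-pathway transcripts of the set together exceeded the proteases of the set together. Proteases outside the set, among them Ctss and Ctsh described below, are not in these sums, so the ratio depends on the choice of members. The 9 genes made up a mean of 1.16 ± 0.32% of all TPM in H2-Aa-high cells of mouse 1 and 1.501 ± 0.548% in mouse 2 (SD over cells). In the other states the mean share lay between 0.096% (rest, mouse 2) and 0.18% (Mpo-high, mouse 2), apart from 0.22% in the lone S100a8-high cell of mouse 1. The summed protease level overlapped across states, with H2-Aa-high medians of 623 and 877 TPM against 972 and 1092 TPM in Mpo-high cells. The summed lipid-pathway level was not: its H2-Aa-high medians were 10160 and 12758 TPM, against 370 and 483 TPM in Mpo-high and 190 and 413 TPM in rest cells. The log2 ratio of the lipid-pathway to the protease sum was above 0 in 34 of 34 H2-Aa-high cells, and in 5 of 34 other cells of mouse 1 and 9 of 28 of mouse 2. Its median was 4.07 and 4.16 in H2-Aa-high cells, against -0.97 and -1.19 in Mpo-high and -1.66 and -0.89 in rest cells. The mean over the 12 Mpo-high cells of mouse 2 was 0.0051, and -0.77 without its highest cell, which stood at 8.53.

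**Figure D2:**
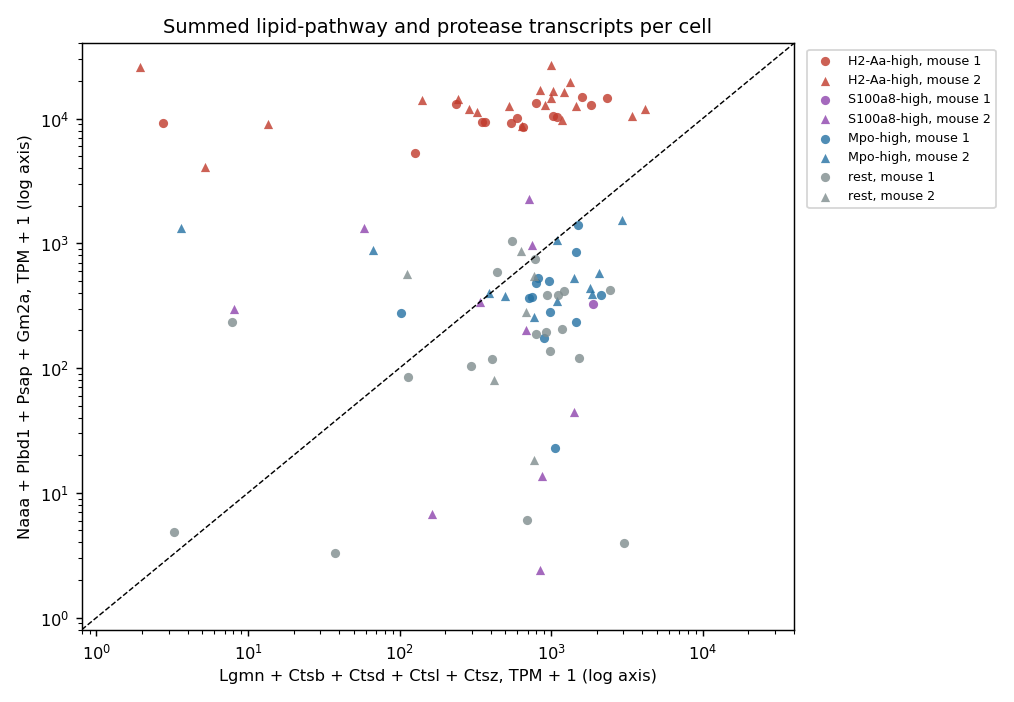
Each point is 1 cell, with the summed TPM + 1 of Lgmn, Ctsb, Ctsd, Ctsl and Ctsz on the horizontal log axis and that of Naaa, Plbd1, Psap and Gm2a on the vertical log axis; colour marks the state, shape the mouse, and the dashed line equal sums. All 34 H2-Aa-high cells lie above the line, and most other cells lie on or below it.

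The make-up of the sum differed by state, and in H2-Aa-high cells Gm2a, Plbd1 and Naaa led in that order in both mice. In H2-Aa-high cells Gm2a gave 36.8% and 49.4% of the summed mean TPM, Plbd1 25.9% and 21.5%, Naaa 25.2% and 16.9%, and Ctsz 5.69% and 5.47%. In rest cells Ctsd gave 51.3% in mouse 1 and 29.4% in mouse 2, and Gm2a 22.1% and 38.1%, so that the leading member differed between the mice. Mpo-high cells were divided among Gm2a (26.9% and 30.5%), Ctsz (26.3% and 31.5%) and Ctsd (24.4% and 21.5%). In the S100a8-high cells of mouse 2 the leading members were Plbd1 with 41.2%, Ctsd with 24.7% and Ctsb with 20.1%, whereas the lone cell of mouse 1 was led by Ctsd with 40.2% and had 0.013% Plbd1.

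**Figure D3:**
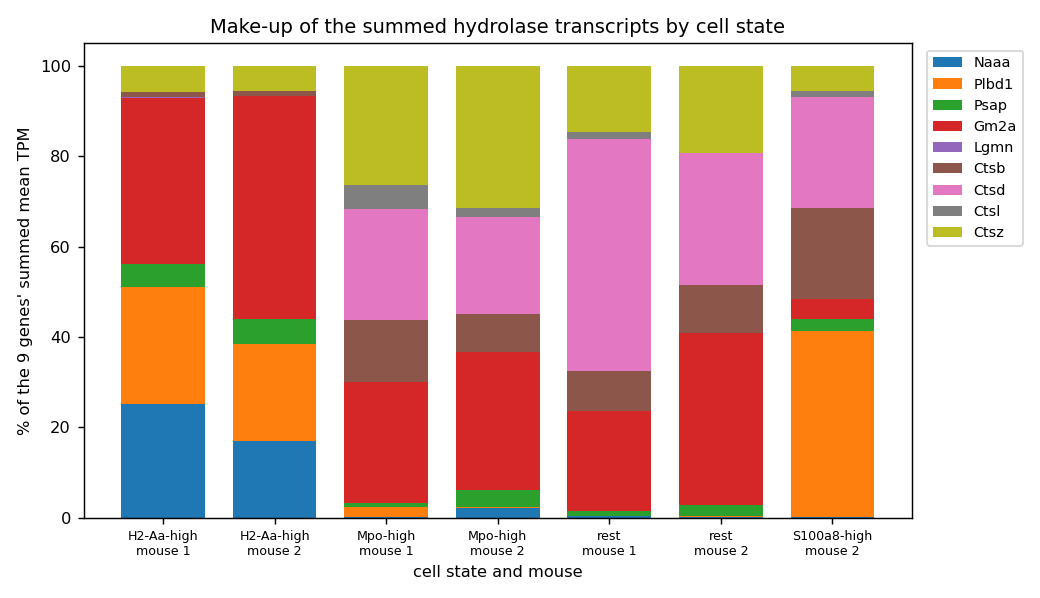
Stacked bars give, for each state and mouse, the percent of the summed mean TPM that each of the 9 genes holds; the single S100a8-high cell of mouse 1 is left out. Naaa, Plbd1 and Gm2a fill most of both H2-Aa-high bars, Ctsd and Ctsz much of the Mpo-high and rest bars, and Plbd1 and Ctsd most of the S100a8-high bar.

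Among cells that were not H2-Aa-high, Ctsz, Ctsb, Ctsl and Gm2a were higher in Mpo-high than in rest cells of both mice. The mean log2(TPM + 1) difference was 3.69 in mouse 1 and 2.02 in mouse 2 for Ctsz, 2.10 and 1.73 for Ctsb, 1.72 and 1.91 for Ctsl, and 1.66 and 1.64 for Gm2a. Ctsd, the leading cathepsin of rest cells, differed by 0.31 and -0.69. Of the 8 measured other cathepsins, 1 was higher and 1 lower in mouse 1, and 6 were higher in mouse 2. Thus 4 of 9 members in mouse 1 and 5 in mouse 2 (with Naaa at 1.61, which rests on 3 of 12 cells above 10 TPM) were higher by 1 or more, and 0 were lower. Over all genes, 21.8% were higher and 5.68% lower in mouse 1 and 21.3% and 15.5% in mouse 2, with medians of 0.22 and 0.11 (centred on that median, mouse 1 had 16.7% and 8.73%). The median number of detected genes was higher in Mpo-high than in rest cells in mouse 1 and lower in mouse 2, as given above. With detected-gene number removed, 7 members were higher in each mouse and Ctsd was lower (-1.48 and -1.53). The higher ones included Naaa (2.35 and 2.56), Plbd1 (3.13 and 1.35) and Psap (1.45 and 1.42). Of all genes, 11% were then higher and 12.4% lower in mouse 1, and 16.7% and 19.8% in mouse 2. That removal was fitted over all cells of a mouse, the gene-poor H2-Aa-high cells included. Unadjusted Naaa means in mouse 1 were 1.11 TPM in Mpo-high and 3.07 TPM in rest cells, and Plbd1 means in mouse 2 were 1.16 and 1.33 TPM. Neither higher call is read as expression. Unadjusted Psap means in mouse 1 were 12.6 and 12.4 TPM, and its unadjusted difference in mouse 2 was 0.73. The Plbd1 level of Mpo-high cells in mouse 1 rested on 1 cell at 426 TPM. The calls of Psap and of Plbd1 in mouse 1 are therefore not read as higher levels either. None of the members passed in the RPKM table, where 3.11% and 2.65% of all genes were higher and 0.823% and 2.44% lower. With medians in place of means 2 members were higher in each mouse, where 19.1% and 16.9% of all genes were. With the Mpo threshold at 300 TPM, Ctsb differed by -0.018 in mouse 1.

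Set directly against Mpo-high cells, H2-Aa-high cells had the 4 lipid-pathway genes higher and 3 of the 5 proteases lower in both mice. The difference was 10.64 and 8.42 for Naaa, 10.03 and 10.50 for Plbd1, 6.57 and 5.54 for Psap, and 3.65 and 3.66 for Gm2a in mouse 1 and mouse 2. Ctsd (-7.27 and -6.61), Ctsl (-2.49 and -1.98) and Ctsb (-1.01 and -1.05) were lower, and Ctsz (0.79 and 0.32) and Lgmn (0.56 and 0.31) passed in neither direction. That made 4 of 9 higher and 3 lower (44.4% and 33.3%) in each mouse. Of all genes, 6.24% were higher and 40.2% lower in mouse 1, and 5.38% and 41.1% in mouse 2. The share of members lower was below that of all genes, so nothing is read from the number of lower proteases. The Ctsb differences were also smaller than its SDs over cells, 2.86 to 3.81. The medians over all genes were -0.67 and -0.70, and centred on them the split was 14.8% and 25.1% in mouse 1 and 14.2% and 25% in mouse 2, with 6 members higher and 2 lower in each. With detected-gene number removed the differences shrank to 4.95 and 4.21 for Naaa, 4.19 and 4.09 for Plbd1, 3.46 and 2.46 for Psap, 1.84 and 2.30 for Gm2a and -3.38 and -2.87 for Ctsd. The lower calls of Ctsl (-0.99 and -0.02) and Ctsb (0.31 and 1.24) did not hold there, and Ctsz became higher (2.44 and 1.42). Comparisons that use the same H2-Aa-high cells share those cells, so their values stand side by side and are not separate evidence.

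Plbd1 ranged widely among the S100a8-high cells, as did Gm2a, at 0.71 to 1.83 TPM in 6 of the 10 cells of mouse 2 and 43.26 to 201.23 TPM in the other 4, and Ctsd, from 0.51 to 744.97 TPM. In the 10 cells of mouse 2 the Plbd1 levels were 0, 0, 0.26, 0.30, 0.32, 14.04, 326, 794, 1310 and 2214 TPM, and the lone cell of mouse 1 had 0.29 TPM. The 5 cells with Elane, the neutrophil elastase of early granule formation, at 1000 TPM or more had Plbd1 between 0 and 0.32 TPM, and the 5 with less Elane had 14.04 to 2214 TPM. This division was chosen after the values were seen. The cell at 14.04 TPM had Ltf at 4.99 TPM and Cd177 at 0, and is the cell with H2-Aa and Xcr1 readings described below. Over the 10 cells the Spearman correlation of Plbd1 was -0.70 with Elane, -0.72 with Mpo, 0.69 with Cd177, a surface protein of maturing neutrophils, 0.45 with Ltf, the lactoferrin of later granules, and -0.66 with the number of detected genes. The markers did not all run together: 1 cell with Ltf at 22590 TPM had Plbd1 at 0.26 TPM, and 1 with Ltf at 3794 TPM and Cd177 at 1241 TPM had Plbd1 at 0. These cells share 1 animal and 1 capture round, and low detected-gene number moved with high Plbd1.

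Against the 6 rest cells of mouse 2, the S100a8-high cells differed in Plbd1 by 3.37, Ctsb by 2.26, Gm2a by -3.98, Ctsz by -1.53 and Ctsd by -1.47 on the log2(TPM + 1) scale. Thus 2 of 9 members were higher and 3 lower, where 10.3% of all genes were higher and 36.1% lower with a median of -0.40 (16.1% and 26.8% centred on it). The directions of Plbd1 and Ctsd turned to -0.29 and 0.66 once detected-gene number was removed; Ctsb (3.57) and Ctsl (1.75) were then higher, and Gm2a (-4.76), Naaa (-2.44) and Psap (-2.38) lower. In the RPKM table none of the 8 members present passed in either direction, where 3.08% of all genes were higher and 4.72% lower. The S100a8-high cell with the highest H2-Aa, 114.54 TPM, also had Xcr1, a cDC1 chemokine receptor, at 111.91 TPM, Psap at 205.71 TPM and the highest Naaa of the 10 cells of mouse 2, 11.37 TPM. Whether that library held RNA of another cell was not tested.

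Between the mice, the 9 genes differed in H2-Aa-high cells by less than the threshold. The mean log2(TPM + 1) of mouse 2 minus mouse 1 was 0.73 for Gm2a, 0.43 for Psap, 0.04 for Plbd1, -0.42 for Naaa, -0.58 for Ctsb and -0.32 for Ctsz. None of the 9 was higher or lower by 1 or more, where 4.87% of all genes were higher and 11.9% lower. With detected-gene number removed, Gm2a passed at 1.13 and Naaa turned to 0.85. Naaa was lower in mouse 2 in the RPKM table (-1.28), and Ctsb was lower with medians in place of means (-2.12). With 1 animal on each side, a difference under the threshold does not show that the mice were alike.

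Over all 48 cells of a mouse the lipid-pathway genes varied together, and their correlations were smaller within H2-Aa-high cells and among the other cells pooled. Their 6 pairs had Spearman correlations of 0.618 to 0.692 in mouse 1 and 0.677 to 0.794 in mouse 2. Within H2-Aa-high cells they ran from -0.319 to 0.424 in mouse 1 (median 0.018) and from -0.284 to 0.260 in mouse 2 (median 0.062). Among the other cells they ran from 0.0049 to 0.208 (median 0.11) and from -0.153 to 0.387 (median 0.21). Ctsd against the 4 genes ran from -0.609 to -0.485 over all cells of mouse 1 and from -0.685 to -0.577 in mouse 2, and from -0.230 to 0.359 within H2-Aa-high cells of either mouse. These are descriptions over cells of 1 animal that share a capture round, with unequal detected-gene numbers.

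**Figure D4:**
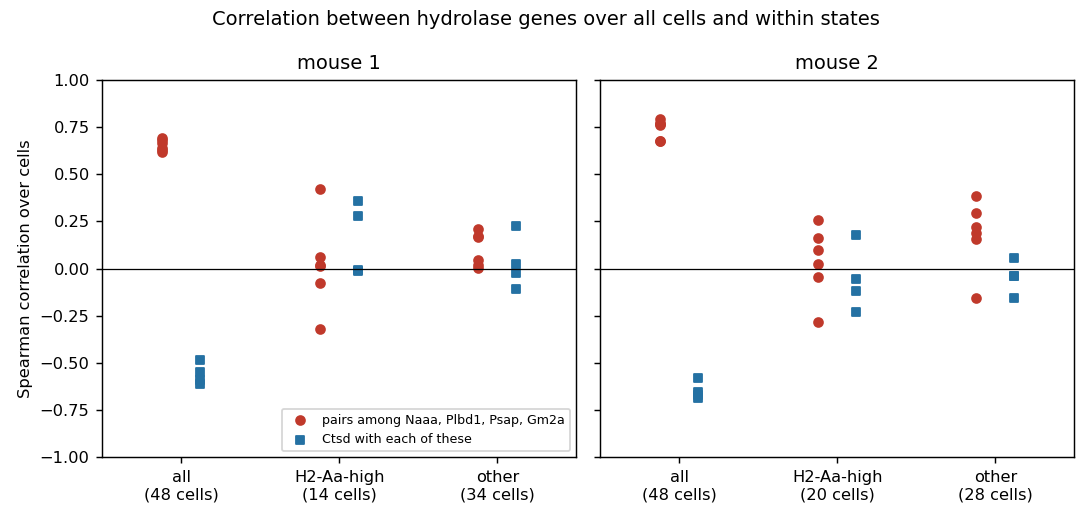
Points give the Spearman correlation over cells (vertical axis) for the 6 pairs among Naaa, Plbd1, Psap and Gm2a (circles) and for Ctsd with each of them (squares), over all cells and within 2 divisions of each mouse. Over all 48 cells the 2 kinds of pair stand well above and well below 0, and within H2-Aa-high or other cells both lie between -0.319 and 0.424.

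The genes whose levels over the 48 cells of each mouse ran most like each member were sought among 4853 genes that 12 or more cells per mouse detected. The smaller Spearman correlation of the 2 mice is given for each. Naaa was most like Cd36 (0.764), Mpeg1 (0.735) and Bcl2a1d (0.713), and Plbd1 most like H2-Aa (0.777), H2-Eb1 (0.768) and Ckb (0.701). Psap stood nearest to Tmsb10 (0.729), Id2 (0.723) and Tnni2 (0.709), and Gm2a to H2-DMa (0.718), Ppt1 (0.713) and Ifi30 (0.708). H2-Aa defined the states, and Bcl2a1d has near-identical copies whose reads may be split, so its value is uncertain. Ctsd was nearest to Serpinb1a (0.617), Nfe2 (0.575) and Rac2 (0.573), all of which had lower mean levels in H2-Aa-high than in rest cells of both mice. Ctsz led with Syngr2 at 0.433, and Ctsb with Mb21d1 at 0.412. Lgmn (detected in 1 cell of each mouse) and Ctsl (6 and 5) were too rare to rank.

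Lysosome genes outside the 9 differed in both directions. The background for the lists that follow is the same contrast over all genes, 8.52% higher and 30.2% lower in mouse 1 and 7.82% and 38% in mouse 2, with medians of -0.43 and -0.53. Of 27 glycan and lipid hydrolases, 10 in mouse 1 and 4 in mouse 2 were higher in H2-Aa-high than in rest cells by 1 or more and 3 and 5 lower, with medians of 0.29 and 0.12. That is 37% higher and 11.1% lower in mouse 1, and 14.8% and 18.5% in mouse 2. Man2b1, lysosomal alpha-mannosidase, differed by 4.26 and 3.33, and Glb1, beta-galactosidase, by -1.19 and -3.09. These lists were made with earlier results of these cells known and are not independent evidence.

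Among 9 other cathepsins, 8 had a mean of 1 TPM or more, of which 2 were higher in each mouse and 1 and 2 lower. Ctss, the cathepsin S of antigen-presenting cells that cleaves the invariant chain, differed by 9.23 and 8.04, with mean levels of 1204 and 1808 TPM in H2-Aa-high cells and 10.0 and 6.04 TPM in rest cells. Ctsh, an aminopeptidase, differed by 5.45 and 5.08. For scale, the proteases of the set together had means of 824 and 986 TPM in H2-Aa-high cells, less than Ctss alone. Ctsa, the protective protein of beta-galactosidase, differed by -2.51 and -1.77, and Ctsc, which activates granule serine proteases, by -0.15 and -1.69. Ctse differed by -0.90 and 0.75, Ctso by -0.41 and 0.94 and Ctsw by -0.42 and 0, and Ctsf and Ctsk had H2-Aa-high means of 0 in mouse 1 and of 0 and 0.118 TPM in mouse 2. H2-Aa-high cells therefore combined high Ctss and Ctsh with near-absent Ctsd. Ctsl was near-absent too, but it was rare in the other cells as well and differed from rest by only -0.76 and -0.07.

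Of 15 other lysosomal enzymes, 5 and 4 were higher and 5 and 6 lower. Pld4, an endolysosomal exonuclease, differed by 9.37 and 6.81, and Ifi30, the thiol reductase of antigen processing, by 7.98 and 6.75. Rnaset2a differed by -1.11 and -3.60, a value that is uncertain because Rnaset2b is nearly identical. Among 13 membrane and luminal transport proteins, 4 and 3 were higher and 4 and 5 lower. Cd68, a macrophage and dendritic cell endosomal protein, differed by 7.47 and 5.29 and Npc2, the luminal cholesterol carrier, by 1.47 and 2.58. Cd63, a tetraspanin of late endosomes and granules, differed by -7.42 and -7.93, with mean levels of 0.75 and 1.16 TPM in H2-Aa-high and 755 and 530 TPM in rest cells, close to the size of the Ctsd difference.

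Genes of the general machinery also differed in both directions. Their lists are short and their shares are to be set beside those of all genes given above, so nothing is read from these counts. Of 15 proton pump subunits, 2 and 3 were higher (13.3% and 20%) and 4 and 5 lower (26.7% and 33.3%), with Atp6v0e at 1.5 and 1.52, Atp6v1g1 at 0.61 and 2.26 and Atp6v1a at -1.71 and -3.95. Of 11 genes of sorting to the lysosome, 2 and 1 were higher (18.2% and 9.09%) and 3 and 2 lower (27.3% and 18.2%). Among them were Grn, the progranulin gene, at 3.10 and 0.67, Igf2r at 1.27 and 2.25 and Vps35 at -3.05 and -0.51. Of 7 measured transcription regulators of lysosome genes, 1 was higher (14.3%) and 2 lower (28.6%) in each mouse, with Rragc at 0.88 and 0.74, Tfe3 at 0.30 and 1.30 and Flcn at -1.04 and -1.48. Most of these were read in few cells, Tfe3 in 1 of 14 and 3 of 20 H2-Aa-high cells at 10 TPM or more.

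Among protease inhibitors, too, single genes differed in opposite directions. Of 10 listed, 5 had a mean of 1 TPM or more, of which 1 was higher in each mouse and 4 and 3 lower. Cst3, cystatin C, which inhibits cysteine cathepsins, had mean levels of 56353 and 55001 TPM in H2-Aa-high cells and 532 and 281 TPM in rest cells, differences of 7.35 and 8.92. Serpinb1a, an inhibitor of neutrophil elastase and cathepsin G, differed by -6.96 and -5.69, and Serpinb6a by -2.11 and 0.54. In the same cells the summed level of the 4 lipid-pathway members was 10746 ± 2658 TPM in mouse 1 and 14025 ± 5435 TPM in mouse 2 (SD over 14 and 20 cells).

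**Figure D5:**
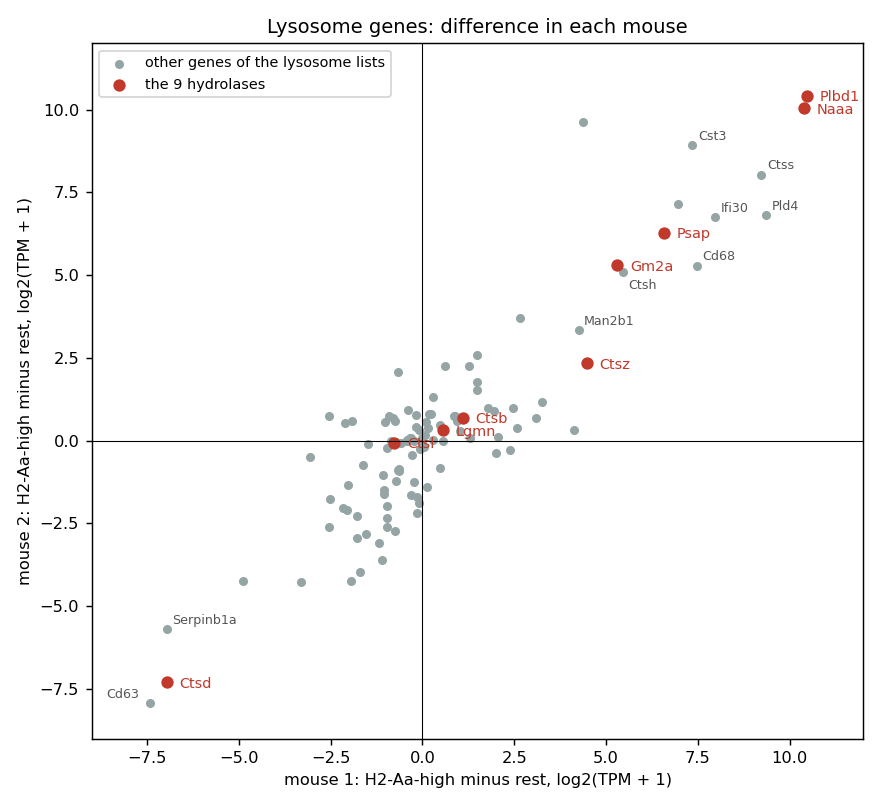
Each point is 1 gene, with the H2-Aa-high minus rest difference of mean log2(TPM + 1) in mouse 1 on the horizontal axis and in mouse 2 on the vertical axis. Red points are the 9 members, labelled hydrolases though Psap and Gm2a encode activators, and grey points the other lysosome genes, 1 of them not shown. Naaa, Plbd1, Psap and Gm2a lie at the upper right with Ctss, Pld4 and Cst3, Ctsd lies at the lower left with Cd63 and Serpinb1a, and most other genes lie between -3 and 3.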

How the data were processed

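Single-cell RNA-seq of 96 cells was analysed from authors' tables. Most values are TPM, which the authors deposited for 23955 gene symbols; they sum to 1000000 in every cell and keep no read depth, so depth is unknown, and detected genes (1 TPM or more) were counted in its place. The other table, used as an alternative only, held RPKM values deposited by the authors for 9310 Ensembl identifiers, of which 9210 were matched to a symbol and 8 of the 9 members were present (Lgmn was not found). RSEM, TopHat2 and Bowtie2 and the builds mm10 and mm9 are named in the submitters' processing notes; versions and roles are not given in the sources used here. A total of 0 value columns were left without a sample, and 0 pairs of cells had identical values.

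The members, states and gene lists were chosen with earlier results of these data known. Differences are between means of log2(TPM + 1) over cells, called at 1 or more, beside 11015 background genes (mean over all cells of at least 1 TPM); a difference on this scale understates the change of low genes. Cells of 1 animal are not replicates, so no test was made. Intervals of shares are 95% exact Clopper-Pearson, and a share of 0 the limit that 3 counts allow; both cover counting of cells only. Genes named beside the members were, from each list, the 2 with the largest and the 1 with the smallest mean difference over both mice (at 10 TPM or more in either state), every other cathepsin, and the 3 genes most like each member; others were chosen after their values were seen. Of these, 1 gene is not reported here. Coordinates come from GENCODE vM21 and promoters from RefSeq, both GRCm38, matched by symbol; Ctsb had no promoter entry. Alternatives were other pseudocounts, state thresholds, filters and calls, medians, the RPKM table, cells left out and detected-gene number removed. Scripts were tested on simulated data. Python 3.11.15, numpy 2.4.6, pandas 2.3.3, scipy 1.17.1 and matplotlib 3.10.9 were used. No doublet caller was run on so few cells, and chambers had been scored by eye per the labels.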

Additional observations from a re-analysis of the deposited data

How the results depend on the processing

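Of 784 member differences recomputed under the alternatives, 689 stayed within the spread between cells, 83 moved beyond it and 12 that had passed the threshold changed sign; a further 42 that had not passed it also changed sign and are counted among the others. Of 192 counts of members, 160 stayed within 1.5 times. Leaving out cells past more than 1 threshold, or cells under 2000 detected genes, moved none of the counts of members. Setting values under 10 TPM to 0 and centring on the median of all genes were chosen after seeing the data, and moved none of them beyond 1.5 times. Where a value below changed, the cause was not tested.

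In the RPKM table fewer cells of each gene lay above the floor. Members higher in H2-Aa-high than in rest cells fell to 2 in each mouse (Naaa and Plbd1) and members lower to 0. Of all genes there, 1.70% and 1.37% were higher and 3.34% and 5.39% lower. Mpo-high and S100a8-high against rest gave 0 in each direction that had any. Of all genes, 3.11% and 2.65% were higher in Mpo-high cells, and 3.08% higher and 4.72% lower in S100a8-high cells. H2-Aa-high against Mpo-high gave 2 higher in mouse 1 and 0 lower in each, beside 1.33% higher in mouse 1 and 5.11% and 5.38% lower. Mouse 2 against mouse 1 gave 1 lower, beside 2.18% of all genes. Of differences that had passed, signs changed there for Ctsz (H2-Aa-high minus rest, mouse 1, -0.0059; S100a8-high minus rest, 0.18), Gm2a (Mpo-high minus rest, -0.13 in each mouse) and Ctsb (Mpo-high minus rest, mouse 2, -0.016; H2-Aa-high minus Mpo-high, mouse 2, 0.15). With detected-gene number removed, 7 members were higher in Mpo-high than in rest cells of mouse 1, beside 11% of all genes. In that comparison 1 was lower in each mouse, beside 12.4% and 19.8%. Also, 1 member was lower in H2-Aa-high than in Mpo-high cells of each, beside 9.19% and 8.06%. Between the mice 1 was higher in mouse 2, beside 3.18%. Of differences that had passed, signs changed for Plbd1 (-0.29) and Ctsd (0.66) in S100a8-high minus rest and for Ctsb in H2-Aa-high minus Mpo-high (0.31 and 1.24). Of those that had not, signs changed for Ctsl in H2-Aa-high minus rest (0.046 and 1.45) and for Naaa (2.35) and Ctsd (-1.48) in Mpo-high minus rest of mouse 1. They also changed for Plbd1 in Mpo-high minus rest of mouse 2 (1.35) and Naaa between the mice (0.85). With medians in place of means, 2 members were higher in Mpo-high than in rest cells of each mouse, beside 19.1% and 16.9% of all genes. Then 1 was lower in H2-Aa-high than in Mpo-high cells of mouse 1, beside 26.7%, and 1 was lower in mouse 2 than in mouse 1, beside 8.43%. Called at 2 log2 units, 2 and 1 members were higher in Mpo-high than in rest cells, beside 5.73% and 7.20% of all genes. At that call 1 was lower in S100a8-high than in rest cells, beside 17.3%, and 1 was lower in H2-Aa-high than in Mpo-high cells of mouse 2, beside 19.9%. A pseudocount of 0.1, or a state threshold of 3000 TPM, gave 2 members lower in H2-Aa-high than in rest cells of mouse 1 (Ctsd and Ctsl). Of all genes, 41.7% and 31.8% were lower under these settings. Both also gave 1 lower in Mpo-high than in rest cells of mouse 2, beside 21.5% and 13.5%. A pseudocount of 10, or a threshold of 300 TPM, gave 3 higher in Mpo-high than in rest cells of mouse 2, beside 8.68% and 24.4% of all genes. At 300 TPM Ctsb changed sign in mouse 1 for Mpo-high minus rest (-0.018) and for H2-Aa-high minus Mpo-high (0.27). Naaa, Plbd1, Psap and Gm2a stayed above rest, and Ctsd below rest, in H2-Aa-high cells of both mice under every alternative run.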

Other observations

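Dnase1l3, a secreted nuclease that dendritic cells and macrophages make, was named after its values were seen. It was the lysosome-list gene whose H2-Aa-high level differed most between the mice: its mean was 639 TPM in mouse 1, with 8 of 14 cells at 10 TPM or more, and 6749 TPM in mouse 2, with 18 of 20. The difference of mean log2(TPM + 1) was 5.38 between the mice, against values between -0.58 and 0.73 for the 9 members. In rest cells its mean was 1.24 and 1.48 TPM. Ppt1, palmitoyl-protein thioesterase, was high and even, at 3828 and 4601 TPM in H2-Aa-high cells against 142 and 109 TPM in rest cells. The mice were also separate captures and differed in sex, and these cannot be told apart.

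The H2-Aa-high cell of mouse 2 with the lowest H2-Aa (6732.43 TPM), which also passed the Mpo threshold, had Naaa at 1251 TPM, Plbd1 at 3276 TPM, Psap at 1241 TPM and Gm2a at 3294 TPM, with Ctsd and Ctsb at 0. Its lipid-pathway genes lay inside the range of the other H2-Aa-high cells.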
